A study of Mus musculus with 31 samples.

Results

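The B6 and JF1 alleles were compared in 4 libraries of hybrid mouse embryonic stem cells (ESCs), out of 31 samples in the series, with 2 libraries from each direction of the cross. A gene was kept when the B6 allele held more of the read bases in both crosses, or fewer in both. Of 14813 features in the ESC table, 14226 were autosomal, 8991 of those had a mean of 20 or more read bases per library, and 6964 were kept (77.5%), 3981 on the B6 side and 2983 on the JF1 side. A read base is a sequenced base at a position where the strains differ, summed over a gene on the sense strand. The B6 share is the percentage of a gene's read bases that carry the B6 allele, so 50% is balance.

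The series measured polyadenylated RNA of hybrids between C57BL/6J (B6) and JF1, a line derived from Japanese fancy mice, at 5 stages. ESC_BJ1 had a B6 mother and a JF1 father, so the B6 allele was maternal. ESC_JB6 is the reciprocal cross, with a JF1 mother. Both ESC groups were male, were derived from blastocysts, and grew on gelatin without feeder cells mentioned, in a defined medium with LIF, BMP4 and an inhibitor of GSK3β, the kinase that restrains Wnt signalling. The B6 parent of both sets of lines carried an Oct4-GFP transgene. Per the deposited readme, this parent came from a strain made on a mixed CBA and B6 background, whereas the tissue samples came from pure C57BL/6 crosses. The other hybrid libraries used here were 4 of the same cultures at day 12 and 4 at day 21 of differentiation toward cortex in medium with cyclopamine, 6 of E13.5 tissue whose label is DT, and 7 of P0 cortex. Day 12 and day 21 libraries are male, and the tissue libraries include both sexes. The labels do not say whether replicate libraries came from separate lines or cultures. The p-values therefore measure the spread between these libraries, which may be technical.

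In an F1 hybrid both alleles of a gene sit in the same nucleus and meet the same transcription factors. A difference between the alleles that follows the strain in both reciprocal crosses is usually read as the effect of sequence close to the gene, called cis-regulation, whereas a difference that follows the parent is the mark of imprinting. A difference in how reads of each allele align would also follow the strain in both crosses, and was not tested here. Pluripotent cells are held in their state by a network of transcription factors, among them Oct4, Sox2, Nanog, Esrrb and Klf4, and by signals such as LIF and Wnt. Differences in this network between strains are known from the ease with which ESCs are derived from them.

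Depth was 5192382 to 6528610 read bases per ESC library, 15.4% to 22% of them mitochondrial, and B6 bases made up 51.3% to 52.0% of those on autosomes. Of 10 ESC markers 8 had read bases, summing to 3165 to 6386 read bases per 1000000 of the library (CPM), whereas Zfp42 and Fgf4 were not listed in the ESC table. Fibroblast markers summed to 12.4 to 29.1 CPM with 9 of 9 listed above 0 and 5 under 1 CPM. Markers of mesoderm, endoderm and trophoblast summed to 25.2 to 95.7 CPM with 9 of 9 above 0, the highest in ESC_JB6 replicate 1, where T reached 72.5 CPM against 9.2 to 16.5 elsewhere. Neural markers summed to 79.7 to 115 CPM with 5 of 6 above 0. The part of such cells in the results was not tested. The ESC_JB6 libraries differed from each other more than the ESC_BJ1 libraries did, with 61.8 against 9.69 for chi-square per degree of freedom over total read bases per gene. Pairs of libraries from different crosses had 20.1 to 48.8, so the ESC_JB6 pair differed more than any of them. Esrrb stood at 2504 CPM in ESC_JB6 replicate 1 and 1253 CPM in replicate 2.

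Many genes carried a strain difference in ESCs, and most differences were small. Among kept genes 3943 passed at an adjusted p of 0.05 (edgeR quasi-likelihood test, Benjamini-Hochberg over all 8991), 2326 with the B6 allele higher and 1617 with the JF1 allele higher. Kept genes that passed were 56.6% of the 6964. The background over all tested features was 44.6%, made of 26.1% with B6 higher and 18.5% with JF1 higher, and the rule itself used this contrast. The B6 share of passing genes had a median of 59.9% on the B6 side (quartiles 56.3% and 66.6%) and 40.1% on the JF1 side (quartiles 32.8% and 44.0%). A distance of at least 10 points from balance in both crosses was reached by 1515 of them, 908 toward B6 and 607 toward JF1. Scaling each allele by its own TMM factor moved the split over all tested features from 2350 against 1660 to 1945 against 2008, as the median gene sat at 0.06 (log2 of B6 over JF1) and moved to −0.01. The excess of B6 calls therefore depends on the scaling, while shares within a gene do not. DESeq2 counted 2253 calls, and a fit with no block for the library counted 840.

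**Figure D1:**
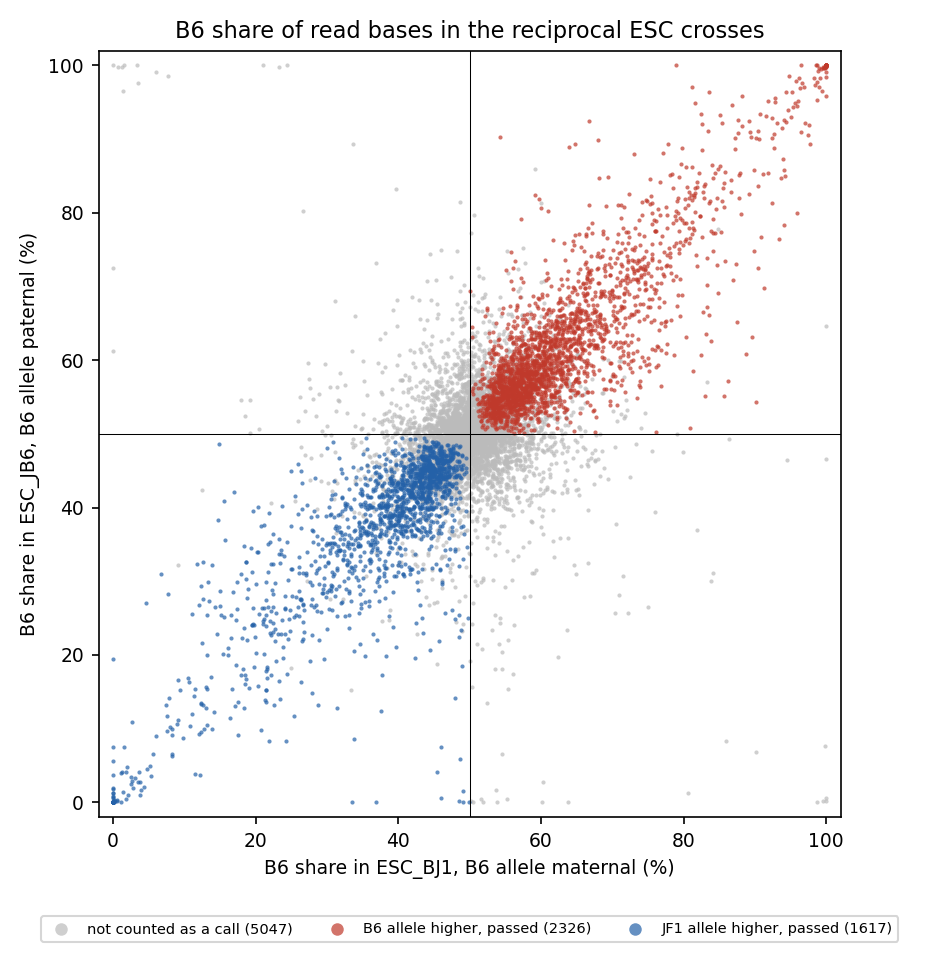
Mean B6 share of read bases in ESC_BJ1 (horizontal axis, %, B6 allele maternal) and in ESC_JB6 (vertical axis, %, B6 allele paternal), 1 point per tested feature with read bases in both crosses. Red and blue points are the 2326 and 1617 kept genes that passed with the B6 or the JF1 allele higher, which by the rule lie at the upper right and lower left, and grey points in the other corners include imprinted genes.

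The share of features called was higher at greater depth. Passing kept genes were 30.9% of features with a mean of 20 to 50 read bases and 67.8% of features at 1000 or more, and the median distance of passing genes from balance fell from 22.6 to 5.39 points between these bands. At the edge of the floor, 70.8% of the 329 features with 20 to 25 read bases lay on the same side in both crosses, against 69.5% of the 403 with 15 to 20, which were not tested. A cross lay within 1 point of balance in 928 kept genes. Among passing kept genes, chosen for crosses on the same side, the crosses differed by a median of 2.69 points. Over all tested features the median was 3.11 points between the crosses, each taken as a mean of 2 libraries. Between single replicate libraries it was 3.75 points in ESC_BJ1 and 4.30 points in ESC_JB6, so the values for crosses and replicates are not on the same footing.

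The most abundant genes had tight shares. Eef1a1, which carries aminoacyl-tRNA to the ribosome, had B6 shares of 59.1% and 58.3% in ESC_BJ1 and 60% and 56.9% in ESC_JB6, with a log2 ratio of 0.50 (SE 0.03, adjusted p = 1.32e-12). All 4 libraries were on the B6 side, and the share was 59.1% at E13.5 and 58.9% both at P0 and at day 12. Scd2, a desaturase of fatty acid synthesis, had 58.9%, 60%, 59.2% and 57.8% in the same order of libraries. All 4 libraries of Scd2 were above balance. Eef1a1, like many genes of the translation machinery, has processed copies elsewhere in the genome, so its share is uncertain.

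Glycolytic genes differed between the alleles in both directions. Of 24 tested, 8 were higher on the B6 allele and 10 on the JF1 allele (75% passed, against 43.9% of all tested features), around a list median of 50.6%. Their median distance from balance was 5.30 points against 4.95 for all tested features, at a median of 2581 read bases, and the part of depth in the count was not tested. Pgam1, phosphoglycerate mutase, had B6 shares of 69.8%, 70%, 69.6% and 69.1%, with a log2 ratio of 1.2 (SE 0.03, adjusted p = 3.25e-21). Its libraries differed by under 1 point, and tissue stood close by at 67.8% for E13.5 and 70.8% for P0. Slc2a3, a glucose transporter, had 67.4%, 71.7%, 66.4% and 72.0% in ESCs and 55.3% to 58.6% at day 12, a difference of 0.78 on the log2 scale (SE 0.08, adjusted p = 1.08e-10). Eno1, enolase, leaned to JF1 with 41.2%, 41.2%, 37.8% and 37.0%. Gapdh, the glyceraldehyde phosphate dehydrogenase, stood at 12.5%, 12.8%, 12.7% and 13.7%, at a log2 ratio of −2.75 (SE 0.03, adjusted p = 1.48e-27). Its share was as low at day 12 (11.3%), E13.5 (12.4%) and P0 (11.4%). Gapdh has many processed copies, so reads of a copy cannot be told apart from reads of the gene here. Copies of other named genes were not searched for.

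Pluripotency genes differed between the alleles in both directions. Of 22 listed genes 21 were tested and 18 were kept, and 8 were higher on the B6 allele and 7 on the JF1 allele (71.4%, against 43.9% of all tested features). Their median B6 share was 51.2%, and that of all tested features 51.0%. The list had a median of 983 read bases against 190.5 for all tested features, and the part of depth in its count was not tested. Pou5f1, which encodes Oct4, had too few read bases to be tested. The rest of the list included 3 genes whose crosses lay on opposite sides (Tbx3, Nr5a2 and Fbxo15) and 3 that were kept and did not pass (Tdh, Dppa2 and Dppa4).

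Klf4, a zinc finger activator of the naive state and a reprogramming factor, was the most one-sided of them toward B6. Its shares were 89.8% and 88.6% in ESC_BJ1 and 91.5% and 93.3% in ESC_JB6, a mean of 90.8% ± 2.07 (SD, n = 4). All 4 libraries were far above balance, and the log2 ratio was 3.31 (SE 0.12, adjusted p = 1.63e-17). At day 21, with a mean of 67.5 read bases, Klf4 stood at 97.7%.

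Sox2, the partner of Oct4, had B6 shares of 55.3%, 59.8%, 61.1% and 63.6% in ESCs (log2 ratio 0.58, SE 0.06, adjusted p = 4.93e-08). Neural cells also express Sox2, and there it was near balance, with 48.3% to 51.2% at day 12 and 44.5% to 47.6% at E13.5. No ESC library overlapped with those of either stage, and the differences were 0.60 (adjusted p = 4.79e-05) and 0.82 (adjusted p = 1.59e-09) on the log2 scale. Spp1, osteopontin, a secreted glycoprotein, had 63.9%, 65.6%, 62.2% and 65.8% in ESCs. It had 24.5% to 53.7% at day 12 and 6.42% to 35.4% at E13.5, all below the ESC libraries. Nanog, the homeobox factor, had 58.5%, 57.6%, 53.5% and 55.9%. The B6 side of Nanog was small but held in all 4 libraries (log2 ratio 0.37, SE 0.06, adjusted p = 4.36e-05).

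Several genes typical of naive cells and the germline were higher on the JF1 allele. Dppa5a, an RNA-binding protein of early embryos, had B6 shares of 20.9%, 21.8%, 13.2% and 14.6% over a mean of 8917 read bases (log2 ratio −2.26, SE 0.04, adjusted p = 6.08e-25). Both ESC_JB6 libraries were below both ESC_BJ1 libraries, and all were far under balance. At day 12, with a mean of 74.5 read bases, Dppa5a stood at 21.4%. Prdm14, a repressor required for germ cells and for the naive state, had 21.7%, 23.5%, 10.8% and 15.5% (log2 ratio −2.30, SE 0.12, adjusted p = 3.13e-14). Dppa3, also named Stella, which protects the maternal genome from demethylation, had 32.5%, 34.5%, 31.6% and 32.2% (log2 ratio −1.05, SE 0.06, adjusted p = 7.51e-13). Its 4 libraries lay within 3 points of each other.

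Tdgf1, also named Cripto, the co-receptor of Nodal, had 12.0%, 13.9%, 8.07% and 17.5%, but its read bases came from 1 strain difference. Esrrb, the nuclear receptor that can stand in for Nanog, was close to balance at 46.9%, 45.4%, 48.3% and 47.1% (log2 ratio −0.18, SE 0.03, adjusted p = 3.11e-05). Of the 15 pluripotency calls 9 held under every alternative fit apart from the one with no block for the library. The exceptions were Gdf3, L1td1, Sall4, Tfcp2l1, Trim71 and Utf1. With no block 6 of the 15 were left, and Dppa3, Esrrb and Nanog were lost as well. The rule on distance from balance in both crosses is not a fit and is not counted here. At least Esrrb, Nanog and Sox2 fell short of that distance. Leaving out ESC_BJ1 replicate 1 lost L1td1, Trim71 and Utf1, leaving out ESC_BJ1 replicate 2 lost Gdf3, L1td1, Sall4 and Trim71, leaving out ESC_JB6 replicate 1 lost Trim71, and leaving out ESC_JB6 replicate 2 lost Gdf3 and Trim71. Tfcp2l1, a factor downstream of LIF and Wnt signals, had 56.3%, 56.2%, 52.0% and 48.4% in ESCs and 62.1% to 77.8% at day 12, where it was higher in all 4 libraries.

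**Figure D2:**
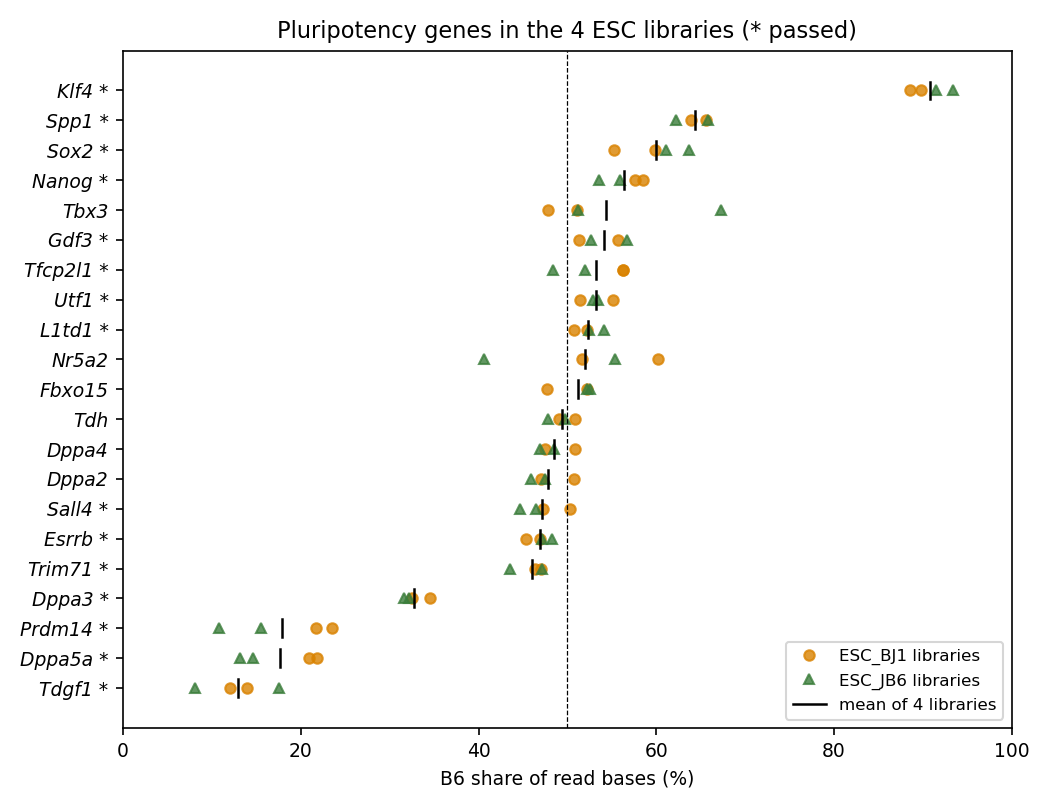
B6 share (%) of the 21 tested pluripotency genes in each ESC library, with the mean as a black tick and a star for genes that passed. Klf4 has the highest shares, with all 4 libraries at 88.6% or more, and Tdgf1, Dppa5a and Prdm14 have the lowest.

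Genes of the signals supplied by the medium, LIF, BMP and Wnt, had calls toward both strains. Of 34 tested, 7 were higher on the B6 allele and 7 on the JF1 allele (41.2%, against 43.9% of all tested features). Their median share was 48.9%. Bmpr1a, a receptor for BMP4, had B6 shares of 63.9%, 66.7%, 57.8% and 63.0%, and stayed at 63.9% at day 12 and 64.7% at E13.5. Lef1, a transcription factor at the end of the Wnt pathway, had 31.1%, 38.6%, 43.5% and 40.9% (adjusted p = 1.91e-07). At day 12 Lef1 ranged from 44.7% to 60%, above all ESC libraries, and the difference passed (adjusted p = 0.00191).

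Of 28 genes of DNA methylation and imprint maintenance, 7 were higher on the B6 allele and 7 on the JF1 allele. These were 50.0%, against 43.9% of all tested features, and the list median was 51.9%. The TET enzymes, which oxidise methylated cytosine, leaned in opposite directions. Tet1 had B6 shares of 60.5%, 60.8%, 56.2% and 57.5% (log2 ratio 0.52, SE 0.05, adjusted p = 1.34e-09). Tet2 had 33.5%, 31.8%, 27.3% and 30.8% (log2 ratio −1.12, SE 0.08, adjusted p = 6.26e-11). Cbx3, a heterochromatin protein, stood at 82.3%, 81.9%, 87.3% and 83.6%, and at 84.5% at E13.5 and 82.8% at P0. At E13.5 Tet1 stood at 51.4% and Tet2 at 45.8%, both nearer to balance than in ESCs, and both differences passed (adjusted p = 6.77e-05 and 1.97e-07).

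Ribosomal protein genes passed most often of the lists, 23 toward B6 and 21 toward JF1 out of 55, around a median of 50.3%. These were 80%, against 43.9% of all tested features. They were also deeply covered, with a median of 5397 read bases against 190.5 for all tested features, and the part of depth in that count was not tested. Nuclear genes of the respiratory chain and ATP synthase gave 14 and 13 of 51 (52.9%), translation factors and tRNA synthetases 24 and 16 of 79 (50.6%), and proteasome genes 6 and 6 of 28 (42.9%). Psmc5, an ATPase of the proteasome cap, had B6 shares of 64.8%, 67.5%, 68.4% and 71.1%. Psma6, a subunit of the proteasome core, had 42.3%, 32.5%, 39.9% and 35.6%. The medians of these lists lay between 49.6% and 51.2%.

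Chaperone genes gave 23 B6 and 12 JF1 calls of 81 (43.2%), and cell cycle genes 17 and 7 of 52 (46.2%). Both shares were near the 43.9% of all tested features. Dnajb6, a co-chaperone of Hsp70, had B6 shares of 93.2%, 91.7%, 93.2% and 92.6% and remained far above balance at E13.5 (97.5%). Ppih, a prolyl isomerase of the spliceosome, was at the other end with 1.52%, 5.38%, 1.00% and 4.55%. Ccnb1, the mitotic cyclin, had 44.8%, 44.7%, 42.7% and 45.7% (adjusted p = 2.41e-06). Cdk2, the kinase of S phase entry, had 40.7%, 40.6%, 42.8% and 40% (adjusted p = 0.000227). Both cell cycle genes were below balance in all 4 libraries.

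Genes of glutathione and redox metabolism gave 12 B6 and 5 JF1 calls of 36 (47.2%, against 43.9% of all tested features). Cat, catalase, had B6 shares of 64.4%, 66.9%, 65.1% and 67.7%, and Gsta4, a glutathione transferase, 70.9%, 74.1%, 74.5% and 67.1%. Gstz1, another transferase, had 27.5%, 25.3%, 29.7% and 25.4%. Nnt, the mitochondrial transhydrogenase that is partly deleted in some C57BL/6J stocks, had 51.7%, 48.7%, 56.7% and 59.5% and did not pass. RNA of the B6 allele of Nnt was thus present in all 4 libraries.

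Antigen presentation genes gave 5 B6 and 6 JF1 calls of 21 (52.4%, against 43.9% of all tested features). Their median B6 share was 39.2%, on the JF1 side. The median distance from balance was 13.9 points against 4.95 for all tested features. The list had a median of 47 read bases against 190.5 for all tested features, and the part of depth in that distance was not tested. Class I and class II MHC genes are multigene families, so reads may be split between copies. Interferon and innate sensing genes gave 10 B6 and 6 JF1 calls of 25 (64.0%, against 43.9% of all tested features). Apobec3, a cytidine deaminase that restricts retroviruses, had B6 shares of 24.5%, 27.3%, 20.2% and 32.8% (log2 ratio −1.50, SE 0.17, adjusted p = 6.48e-08). Ifitm1, a membrane protein of the interferon response, had 69.2%, 62.9%, 68.8% and 68.5% (log2 ratio 1.04, SE 0.08, adjusted p = 1.63e-10).

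Of 220 zinc finger genes with a Zfp symbol, 43 were higher on the B6 allele and 34 on the JF1 allele (35%, under the 43.9% of all tested features, at a median of 102.6 read bases). Zfp534 is among those expressed in ESCs, and had shares of 2.36%, 1.76%, 0.709% and 1.22%. Zfp229 had 94.1%, 94.7%, 92.3% and 92.5%. Zinc finger genes are often close copies of each other, so these shares are uncertain. Known imprinted genes were mostly removed by the rule, since 26 of the 41 tested lay on opposite sides. H19, expressed from the maternal allele, had B6 shares of 100% and 100% in ESC_BJ1 against 0.704% and 0.401% in ESC_JB6. Peg10, expressed from the paternal allele, had 0.805% and 0.588% against 99.6% and 99.9%. The libraries of both crosses thus matched their labels.

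The remaining lists were small, and their shares stand against 43.9% of all tested features. Of 11 tested genes of 2-cell-like and germline cells all were kept, and 2 were higher on the B6 allele and 5 on the JF1 allele (63.6%). Histone genes gave 3 and 2 of 10 (50.0%), and 14 loci with known strain differences gave 5 and 4 (64.3%). Germ layer genes gave 5 and 3 of 14 (57.1%). Pecam1, an adhesion molecule of endothelium and ESCs, had B6 shares of 73.2%, 71.0%, 67.4% and 71.3% in ESCs and 43.9% to 50.9% at day 12 (difference 1.37 on the log2 scale, SE 0.19, adjusted p = 2.41e-07). All ESC libraries were above all day 12 libraries. Fibroblast markers gave 1 and 2 of 9 (33.3%).

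Some genes were read from a single allele in both crosses. The B6 share was at least 98% in 34 genes and below 2% in 40. Those at the B6 end covered a median of 3 strain differences per gene, and many are genes with known processed copies, such as H3f3a, Hspa8 and Rpl15. H3f3a had 12904 B6 read bases of 12905, and Hspa8 had 12133 of 12134. Only some could be tested in tissue, and 17 of the 19 tested at E13.5 and 17 of the 20 tested at P0 were again at 98% or more in both crosses. Among the exceptions, Enox1 stood at 55.1% at E13.5 and 47.9% at P0. Reads of a copy cannot be told apart from reads of the gene here.

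Genes at the JF1 end covered a median of 8.63 strain differences. At day 12, 21 of 27 tested were again below 2% in both crosses, and at day 21, 25 of 29. At E13.5 only 4 of 29 were, and 21 lay between 25% and 75%. The median share of these genes was 0.143% at day 12 and 52.3% at E13.5. Uqcrc1, a core subunit of respiratory complex III, had 0 B6 read bases of 678 in the 4 ESC libraries, which allows a share of up to 0.442%. Its share at E13.5 was 73.1% to 81.1%. Clns1a, a chaperone of spliceosome assembly, had 1 B6 read base of 744 in ESCs and 77.7% to 84.9% at E13.5. Tsnax, a partner of the RNA-binding protein translin, had 0 of 1721, which allows up to 0.174%, and was one of those still below 2% at E13.5. These limits cover counting error only and treat each read base as an independent count. A read that spans several strain differences adds several read bases, so the limits are too low where this happens.

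A wider pattern was defined after these values were seen. It takes genes with a mean B6 share under 25% in all cultured groups (ESCs, day 12, day 21) and over 35% in both tissues, and it held 32 of the 7689 genes placed and tested at all 5 stages (0.416%). The mirror pattern toward B6 held 2 genes. All 32 had been kept and had passed in ESCs, which the limit of 25% there favours. Their median share was 0.881% in ESCs and 53.1% at E13.5, and the limits of the pattern set these apart beforehand. Canx, calnexin, a chaperone of the endoplasmic reticulum, had 8.99%, 6.92%, 10.9% and 9.46% in ESCs, 7.76% to 12.4% at day 12 and 43.7% to 49.0% at E13.5. The cultured libraries of Canx all lay far below those of E13.5. In 3 of the 32 the low mean came from ESC_JB6: Rps18, Rpp21 and Pbx2, all on chromosome 17, had 48.5%, 46.0% and 33.6% in ESC_BJ1 and 0.18%, 0.654% and 0% in ESC_JB6.

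Of the 32 genes, 14 lay in 2 groups of at least 3 neighbours, joined where they were at most 5 places apart among the placed genes. Each span runs from the first to the last gene with the pattern, so both of its ends have the pattern by definition. On chromosome 7, from Nars2 to Mrpl48, 9 of the 12 genes tested at all stages had the pattern. Among them Rsf1, a chromatin remodeller, and Rnf169, a ubiquitin ligase, had no B6 read base in ESCs, with 58.2% and 64.3% at E13.5. The exceptions were Pold3 (53.3% in ESCs), C2cd3 (31.0%) and Ppme1, which had 27.4% in ESCs and 2.67% at E13.5. On chromosome 8, from Zfp423 to Cyb5b, 5 of 5 had it. The readme describes a filter on the pooled reads of 12 cultured libraries, over 37985 positions where JF1 equals CBA or DBA. Its limits were more than 50 reads, a B6 percentage below 10% and a JF1 percentage above 40%, and 6252 positions were removed. Whether other positions remained at which the B6 parent of the cultured lines carried sequence of other strains was not tested. The mixed background of that parent and the culture itself cannot be told apart as the source of the shares common to both crosses, because all cultured libraries have that parent and no tissue library does.

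**Figure D3:**
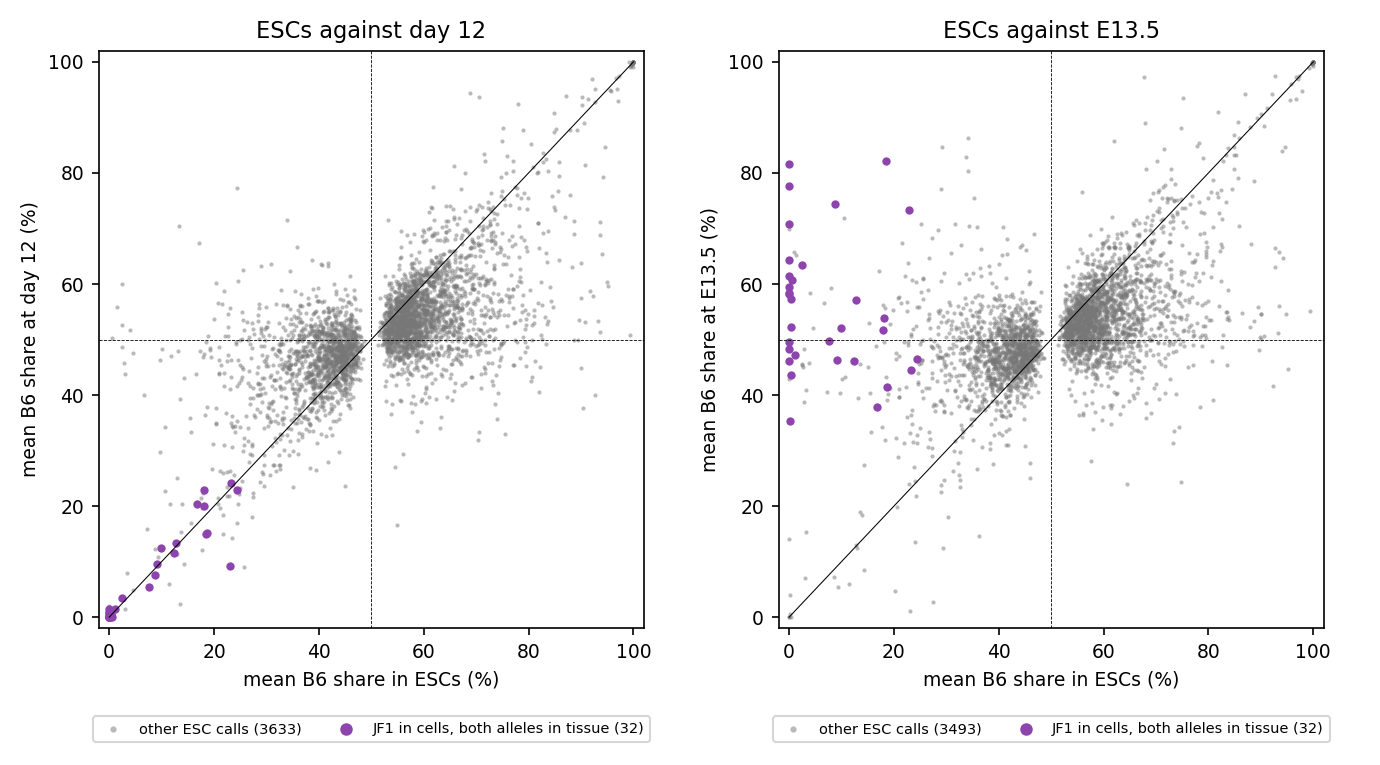
Mean B6 share (%) in ESCs against that at day 12 (left) and at E13.5 (right), for genes that passed in ESCs, 1 point per gene, with the diagonal as a line. Most of the 32 purple genes lie near the diagonal at day 12, with Papd5 below it (23.0% in ESCs, 9.29% at day 12), and all lie between 35.4% and 82.2% at E13.5. The empty band near 50% on the horizontal axis comes from plotting only genes that passed in ESCs.

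Strain differences of ESCs were tested again in libraries that had no part in their choice. Of genes with the B6 allele higher in ESCs, 1071 of 2176 tested at day 12 passed in the same direction (49.2%, background 20.5%). At E13.5 it was 1192 of 2085 (57.2%, background 28.1%). Over all features of a stage, in either direction, 45.9% passed for E13.5, 48.2% for P0, 35.9% for day 12 and 34.4% for day 21. Of genes with the JF1 allele higher, 676 of 1489 passed in the same direction at day 12 (45.4%, background 15.4%) and 642 of 1440 at E13.5 (44.6%, background 17.8%). At both stages the share in the same direction was above the background for either strain. Calls in ESCs were more frequent among deeply covered features, and the part of depth in this excess was not tested. A pass in the opposite direction was found for 4.00% of B6 genes and 5.91% of JF1 genes at day 12, and for 6.47% and 13.1% at E13.5.

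The same counts were 1019 of 2188 (46.6%, background 19.6%) toward B6 and 593 of 1503 (39.5%, background 14.8%) toward JF1 at day 21. At P0 they were 1108 of 2099 (52.8%, background 29.2%) and 549 of 1427 (38.5%, background 19%). With counts divided by 3, calls repeated at day 12 fell from 1747 to 1140 and at day 21 from 1612 to 1072. Of 3366 ESC calls tested at all 4 other stages, 820 passed the same way at every stage and 878 at none. The share passing in both cultured stages and in neither tissue was 8.91% on the JF1 side and 3.49% on the B6 side. The share passing in both tissues and in neither cultured stage was 5.82% on the JF1 side and 7.67% on the B6 side. Across genes, the B6 share in ESCs had a Pearson r of 0.64 with day 12 (n = 8513 genes) and 0.48 with E13.5 (n = 8218 genes). Genes are not independent replicates, and these points share alignment, strain positions and, for day 12, cell lines.

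The difference from the other stages was then tested directly. The tests against day 12 and E13.5 share the ESC libraries. Against E13.5, the stage, the culture and the mixed background of the B6 parent of the cultured lines cannot be told apart. Against day 12, 1699 of 6580 kept genes differed (25.8%), 943 with more of the B6 allele in ESCs and 756 with more of the JF1 allele. The background over 8513 features was 21.7%, as 11.9% and 9.84%. Against E13.5, 2090 of 6346 kept genes differed (32.9%), 1109 and 981 in these directions. The background over 8218 features was 28.4%, as 14.6% and 13.8%. With counts divided by 3, to allow for reads that cover several strain differences, 893 genes differed from day 12 and 1231 from E13.5. Of 3665 genes that passed in ESCs and were tested at day 12, 1425 differed, and 260 of them by 20 points or more. Most of the 1425 were farther from balance in ESCs (1342), which the choice of genes by their ESC values favours.

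Tpbg, a membrane glycoprotein that dampens Wnt signalling, was nearly silent on the B6 allele in ESCs, with shares of 2.59%, 2.79%, 2.33% and 3.34%. At day 12 it had 40.9%, 48.2%, 47.2% and 46.5%, a difference of −4.88 on the log2 scale (SE 0.17, adjusted p = 1.3e-26). The groups were separated by more than 35 points. Pigp, an enzyme of GPI anchor synthesis, had 5.78%, 3.65%, 4.65% and 4.30% in ESCs and 47%, 46.5%, 44.3% and 52.7% at day 12 (difference −4.24, SE 0.15, adjusted p = 8.44e-27). Zc3hav1, an antiviral zinc finger protein, crossed balance, with 15.4%, 9.59%, 18.8% and 24.5% in ESCs and 71.9%, 66.7%, 62.1% and 69.2% at day 12.

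Toward B6, Mtus2, a microtubule-binding protein, had 85.3%, 88.1%, 97.6% and 91.7% in ESCs and 63.2%, 51.1%, 51.1% and 47.4% at day 12 (difference 3.27, SE 0.25, adjusted p = 1.93e-14). Vim, the intermediate filament vimentin, had 76.0%, 76.9%, 71.3% and 65.7% in ESCs and 49.8%, 49.5%, 52.1% and 51.1% at day 12 (difference 1.38, SE 0.05, adjusted p = 1.5e-26). All day 12 libraries of Vim were at balance and all ESC libraries above it. Its total rose from a mean of 2018 read bases in ESCs to 11142 at day 12. Vim is also expressed by fibroblasts and neural cells, whose markers are given above. Against E13.5, Wdfy1, a protein of endosomes, had 78.3%, 72.8%, 76.2% and 71.6% in ESCs and 15.8% to 32.4% at E13.5 (adjusted p = 2.08e-21). Ipp, a kelch protein, had 87.6%, 95.4%, 95.9% and 90.3% against 34.6% to 50.9%. In bulk samples a change of allele within a cell and a change in which cells express the gene cannot be told apart.

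Enox1, a plasma membrane oxidase, and Dcdc2a, a doublecortin family protein, were chosen after their values were seen, as genes at the 2 ends of the range in ESCs and away from those ends at other stages. Enox1 had B6 shares of 99.2%, 98.9%, 100% and 99.2% in ESCs, from 519 B6 and 4 JF1 read bases, and 59.1%, 58.6%, 42.3% and 43.3% at day 12. Dcdc2a had 2.04%, 0.833%, 1.10% and 1.64% in ESCs, from 5 B6 read bases of 370, and 36.8%, 56.7%, 75% and 55.3% at day 12. At E13.5 they ranged from 42.4% to 68.2% and from 40% to 90.3%. Day 12 means rest on 34.3 and 26.8 read bases.

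The stretch before the start of these genes, and of Klf4 and Vim, is shown because each has an allele difference in ESCs. The reference is C57BL/6J, which need not be the sequence of the B6 parent of these lines everywhere, given its mixed background, and the JF1 sequence was not analysed here. Each is 250 bases from RefSeq on GRCm38.p6, 5′ to 3′ on the gene's strand, ending at the base before the start, at chr14:77156513-77156762 (plus strand), chr13:25055754-25056003 (plus), chr4:55532476-55532725 (minus) and chr2:13574061-13574310 (plus). Capitals mark a GC box (GGGGCGGGG) or a TATA box (TATAAA) on either strand.
Enox1: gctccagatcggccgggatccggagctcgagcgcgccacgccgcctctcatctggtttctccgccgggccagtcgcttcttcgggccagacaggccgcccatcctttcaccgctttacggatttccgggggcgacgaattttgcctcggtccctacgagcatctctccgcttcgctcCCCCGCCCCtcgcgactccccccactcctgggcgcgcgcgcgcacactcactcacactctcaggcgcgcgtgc
Dcdc2a: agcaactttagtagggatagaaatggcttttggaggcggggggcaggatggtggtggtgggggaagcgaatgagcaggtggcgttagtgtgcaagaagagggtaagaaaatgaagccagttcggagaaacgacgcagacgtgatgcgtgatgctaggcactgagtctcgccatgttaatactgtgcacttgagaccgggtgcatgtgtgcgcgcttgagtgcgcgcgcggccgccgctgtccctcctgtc
Klf4: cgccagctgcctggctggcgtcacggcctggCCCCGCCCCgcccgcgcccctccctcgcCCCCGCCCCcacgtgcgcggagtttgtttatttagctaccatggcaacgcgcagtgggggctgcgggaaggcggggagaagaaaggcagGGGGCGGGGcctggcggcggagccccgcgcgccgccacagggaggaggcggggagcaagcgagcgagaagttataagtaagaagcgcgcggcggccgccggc
Vim: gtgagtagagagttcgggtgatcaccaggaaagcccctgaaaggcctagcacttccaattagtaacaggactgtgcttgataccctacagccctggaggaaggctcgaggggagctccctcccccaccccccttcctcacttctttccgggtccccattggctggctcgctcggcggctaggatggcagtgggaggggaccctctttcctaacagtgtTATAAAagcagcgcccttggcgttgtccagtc

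The Klf4 stretch holds 3 GC boxes, the Enox1 stretch holds 1 on the opposite strand and the Vim stretch 1 TATA box. A GC box is found in 10.4% and a TATA box in 12.4% of 32851 stretches of this length. No match was found in the 4 stretches for the octamer ATGCAAAT (1.60% of all), AAGGTCA, the core bound by Esrrb (4.08%), or GGGCGTGG, a core bound by Klf factors (4.79%), searched on both strands. The number of CpG pairs was 33 in Enox1, 18 in Dcdc2a, 32 in Klf4 and 8 in Vim, against a median of 6, and GC content was 68.8%, 57.2%, 74.0% and 58.4% against 52.4%. A match is a description of the letters in this window.

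**Figure D4:**
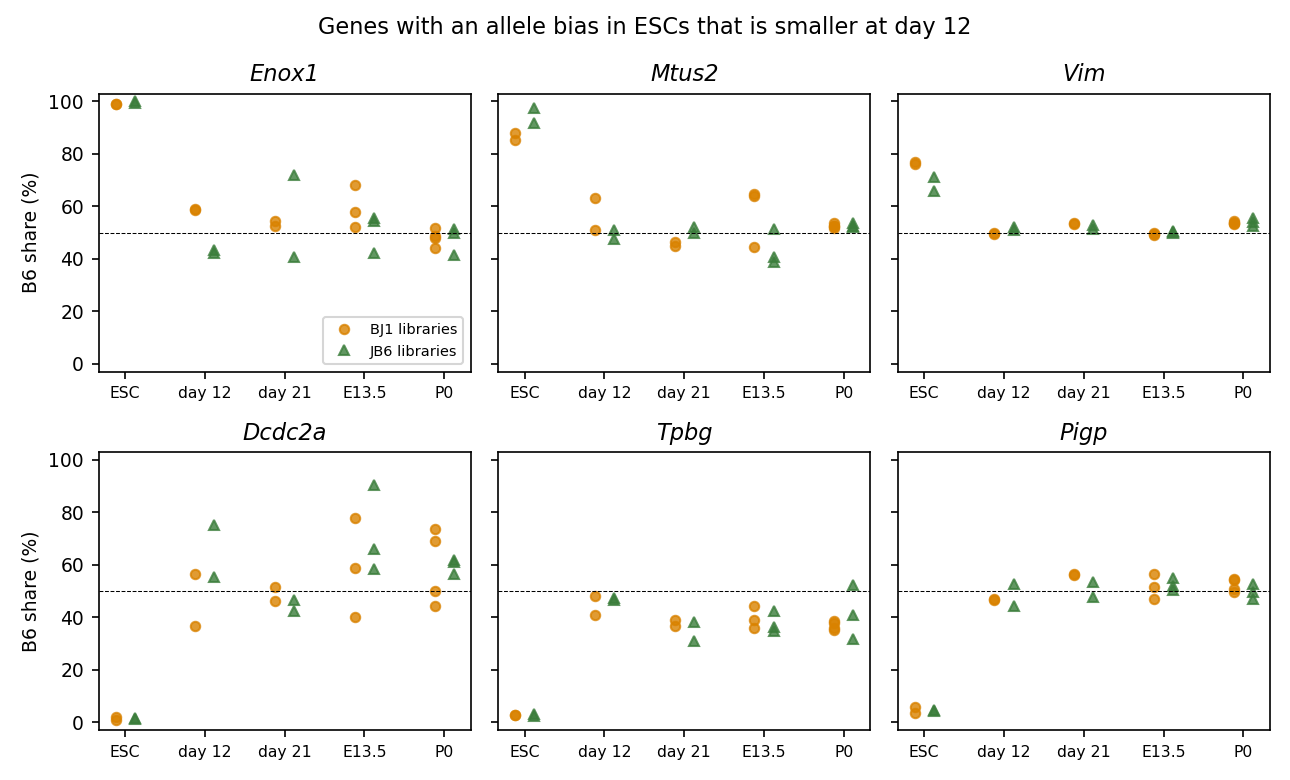
B6 share (%) of Enox1, Mtus2, Vim, Dcdc2a, Tpbg and Pigp in each library at up to 5 stages, drawn where a stage has a mean of 20 or more read bases. The ESC libraries of every gene stand apart from those of day 12, at 65.7% or more for Enox1, Mtus2 and Vim and at 5.78% or less for Dcdc2a, Tpbg and Pigp.

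The strain shares also held differences between the lines. In 17 genes the B6 share was more than 40 points from balance in ESC_JB6 and less than 10 in ESC_BJ1, 16 of them toward JF1 and 11 on chromosome 17. That chromosome held 451 of the 8991 tested features. Of the 17 genes, 9 were kept and passed. Rps18, a ribosomal protein, had 49.1% and 48.0% in ESC_BJ1 and 0.123% and 0.237% in ESC_JB6, and at E13.5 lay at 46.0% to 46.9% in both crosses. Atp5g2, a subunit of ATP synthase, had 49.7% and 50.2% against 0% and 0.154%. The fit without a parental term lost the call of Atp5g2 (adjusted p = 0.453). The reverse pattern, far from balance in ESC_BJ1 alone, was found in 3 genes, all toward B6.

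Medians per chromosome showed the same lines. On chromosome 1 the median B6 share was 54.3% and 54.5% in ESC_BJ1 and 50.6% and 51.4% in ESC_JB6. Of the kept calls there, 175 were toward B6 and 66 toward JF1, which is 72.6% toward B6. Over all autosomes 2326 kept calls were toward B6 and 1617 toward JF1. Such an excess was not limited to chromosome 1, as chromosome 3 had 68.8% and chromosome 6 had 67.8% toward B6. At day 12 the chromosome 1 medians were 53.1% and 50.3% for the crosses, and at E13.5 51.2% and 51.1%. On chromosome 17 ESC_JB6 had the lower values, 48.7% and 49.3%, against 51.0% and 50.1%. All other chromosomes lay between 49.8% and 53.0% in every ESC library. Without chromosomes 1 and 17, left out after these values were seen, 3517 calls were counted, 2063 toward B6 and 1454 toward JF1.

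**Figure D5:**
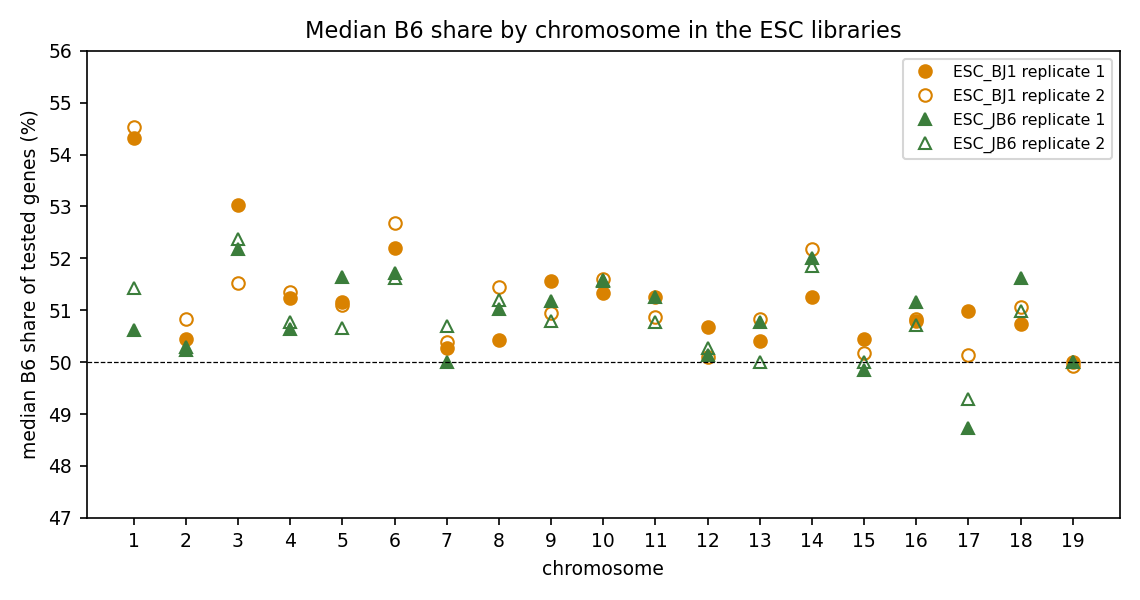
Median B6 share (%) of the tested genes on each autosome in the 4 ESC libraries. Chromosome 1 is higher in both ESC_BJ1 libraries (54.3% and 54.5%) than in both ESC_JB6 libraries, and chromosome 17 is lowest in ESC_JB6.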

How the data were processed

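The samples, groups and crosses were read from the labels. Per the deposited readme and the submitters' processing notes, the authors used CASAVA 1.8.2, Novoalign and the mm9 build, piled up the strain positions with SAMtools mpileup 0.1.18, and deposited raw counts of sense-strand read bases per gene and parental allele, without normalization. Genes came from UCSC refFlat with 11 mitochondrial genes added. HTSeq and edgeR are also named in those notes, without versions. The readme describes a filter over 12 pooled cultured libraries that removed 6252 positions.

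From these counts, B6 and JF1 read bases were assigned by cross. The test was edgeR 4.0.16 (quasi-likelihood, robust) in R 4.3.3, with 2 columns per library of the same library size, and terms for library, strain and parent, over autosomal features averaging 20 or more read bases. P-values were adjusted by Benjamini-Hochberg over all of them, with a threshold of 0.05. Stage differences were contrasts of strain terms in a joint fit of all 25 hybrid libraries. The fit was tested on simulated data. A call means a kept gene past the threshold. CPM is the count per 1000000 read bases of its library. All per-sample columns were mapped to a sample, and 0 were left unused. Gene positions used GRCm38 annotation by symbol.

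The kept genes, the 21 gene lists and the choice of genes were made with earlier results of these data known. Named genes are passing kept genes with a single symbol. They are up to 6 per direction by read bases and 6 by log2 ratio among those with a mean of 100 or more, up to 2 per list and direction with a mean of 50 or more, up to 4 per contrast and direction, and the pluripotency genes, Nnt and imprinted genes. At least 1 gene that this rule picks is not reported here. Any other gene, among them Enox1, Dcdc2a, Rsf1, Rnf169, Rpp21, Pbx2, Papd5, Pold3, C2cd3 and Ppme1, was chosen after its values were seen. Alternatives were separate TMM factors per allele, other floors, counts divided by 3, DESeq2 1.42.0, limma 3.58.1 on log2 ratios, no parental term, no library block, joined features or chromosome 17 left out, and each replicate left out. Same-numbered libraries of the crosses were not paired. Python 3.11.15, pandas 2.3.3, numpy 2.4.6 and matplotlib 3.10.9 read the tables and drew the plots.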

Additional observations from a re-analysis of the deposited data

Results flagged for a closer look

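The strain difference of ESCs was compared with that of other stages by a test of the difference itself (edgeR quasi-likelihood contrast). It differed in 1699 of 6580 kept genes against day 12 (25.8%, background over all features 21.7%). Against E13.5 it differed in 2090 of 6346 (32.9%, background 28.4%). With counts divided by 3, these counts were 893 and 1231. Among the genes named for the size of that difference against day 12, the mean B6 share in ESCs minus that at day 12 was −40.8 points for 4930583H14Rik, −43.0 for Pigp, −42.9 for Tpbg and −50.4 for Zc3hav1. It was 32.4 points for Ank, a pyrophosphate transporter, 37.5 for Mtus2, 32.9 for Notum, a Wnt deacylase, and 28.6 for Vill. Against E13.5 it was −81.5 points for Clns1a, −56.9 for Cyb5b, −48.1 for Tmem188 and −77.6 for Uqcrc1, and 50.6 for Ipp, 40.03 for Mtus2 and 50.3 for Wdfy1. Clns1a, Cyb5b, Tmem188 and Uqcrc1 belong to the 32 genes with low shares in all cultured groups. For these, culture and the mixed background of the B6 parent cannot be told apart. Cycs, cytochrome c, was named by its fitted ratio although its share differed by 0.753 points, because it had no JF1 read base in 2564 in ESCs.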

How the results depend on the processing

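The table of alternatives covers the counts and every named gene. With no block for the library, which pairs the alleles of a library, 840 calls were left (496 toward B6, 344 toward JF1). DESeq2 gave 2253 (1351 and 902). At least 10 points in both crosses left 1515 (908 and 607). With counts divided by 3 the difference from day 12 fell to 893 genes and from E13.5 to 1231, and calls repeated at day 12 and day 21 to 1140 and 1072. Leaving out each replicate gave 2899 to 3688 calls in ESCs (1729 to 2148 toward B6, 1170 to 1540 toward JF1), 1338 to 1525 and 1704 to 2004 for the differences from day 12 and E13.5, and 1410 to 1631, 1289 to 1517, 1422 to 1690 and 1279 to 1534 for calls repeated at day 12, day 21, E13.5 and P0. Copg2, which did not pass, turned to −0.023 without ESC_BJ1 replicate 2 (adjusted p = 0.967, from 0.20), and stood at 0.42 without ESC_BJ1 replicate 1. Same-numbered libraries of the crosses had a correlation of −0.04, so replicate numbers gave no pairing. The named genes kept direction and side of the threshold in 1669 results, lost the call in 164, gained it in 2 and turned in 1. The cause of these changes was not tested. Passing genes made up 30.9% of features with 20 to 50 read bases and 67.8% of those with 1000 or more.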
